A study of Mus musculus with 2 samples.

Results

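The secreted Wnt antagonists are 9 genes whose proteins act outside the cell to limit Wnt signalling: 5 secreted Frizzled-related proteins (Sfrp1, Sfrp2, Sfrp4, Sfrp5 and Frzb), 3 Dickkopf proteins (Dkk1, Dkk2 and Dkk3) and Wnt inhibitory factor (Wif1). They were taken as the 9 of 20660 named genes on the array whose probe is annotated to a RefSeq transcript of one of these symbols, and each was measured by 1 probe. RNA came from primary articular chondrocytes of 6-day-old C57BL/6J mice, seeded in silicon chambers with a fibronectin coat. One array carried RNA taken before loading, and the other RNA taken 24 h after 30 min of cyclic tensile strain at 0.5 Hz and 10% elongation. Chambers were stretched after 48 h in culture, and values after loading are those at 24 h throughout. Since each time point has only 1 array, there was no replicate to test against and p-values are absent. The array before loading was the control, and chambers left unstretched for the same 24 h were not analysed here, so loading and further culture cannot be told apart. In bulk RNA, fewer cells of a type and less RNA per cell cannot be told apart either.

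Wnt ligands bind a Frizzled receptor together with a co-receptor of the LRP family at the cell surface, which stabilises β-catenin and lets it switch on genes with TCF and LEF factors. Secreted Frizzled-related proteins and Wif1 bind the Wnt ligand itself, whereas Dkk1 and Dkk2 bind the LRP co-receptors and keep them from the ligand. In cartilage, Wnt signalling through β-catenin is known to favour hypertrophy and matrix breakdown, and Frzb, also called Sfrp3, was first isolated from cartilage. The study searched for genes altered by excessive mechanical loading, and the question here is how the antagonists stood 24 h after it.

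The members split in direction. Sfrp2 and Frzb were more than 2-fold higher 24 h after loading, Dkk3 and Sfrp5 were higher by less, Wif1, Sfrp4 and Sfrp1 were lower by less than 2-fold, and neither array gave Dkk1 or Dkk2 a signal well above background. Of the 7 detected members, 2 were past 2-fold higher and 0 past 2-fold lower. Among all 14222 genes detected on both arrays, 0.668% were past 2-fold higher and 1.83% past 2-fold lower. The median log2 ratio, 24 h after over before loading, was 0.49 over the 7 detected members and -0.01 over all detected genes.

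The promoter windows of Sfrp2 and Frzb, the 2 members past 2-fold, are shown beside those of Wif1, the lowest member, and of Dkk1, an undetected one. They are the 250 bases before the transcription start from RefSeq on GRCm38.p6, 5′ to 3′ on the strand of the gene, and 6 of the 9 members had such a window (all but Sfrp1, Sfrp4 and Dkk3). The Sfrp2 window belongs to a transcript start inside the span of its RefSeq gene record, which begins further upstream. The Dkk2 window, which is searched but not printed here, also reaches into its gene record at its 3′ end. Sfrp2 lies at chr3:83766071-83766320 on the plus strand, Frzb at chr2:80447397-80447646 on the minus strand, Wif1 at chr10:121033754-121034003 on the plus strand and Dkk1 at chr19:30549497-30549746 on the minus strand. Capitals mark matches to the motifs described after the sequences.
Sfrp2: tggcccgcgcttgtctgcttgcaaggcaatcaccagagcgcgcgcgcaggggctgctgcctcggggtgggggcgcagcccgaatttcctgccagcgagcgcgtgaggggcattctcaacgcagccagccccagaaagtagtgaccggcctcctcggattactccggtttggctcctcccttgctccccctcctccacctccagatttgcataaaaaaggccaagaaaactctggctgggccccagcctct
Frzb: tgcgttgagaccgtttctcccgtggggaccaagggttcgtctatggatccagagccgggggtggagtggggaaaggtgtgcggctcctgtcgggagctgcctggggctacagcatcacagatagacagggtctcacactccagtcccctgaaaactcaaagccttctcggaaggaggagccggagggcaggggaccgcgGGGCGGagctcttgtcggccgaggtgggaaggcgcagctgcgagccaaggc
Wif1: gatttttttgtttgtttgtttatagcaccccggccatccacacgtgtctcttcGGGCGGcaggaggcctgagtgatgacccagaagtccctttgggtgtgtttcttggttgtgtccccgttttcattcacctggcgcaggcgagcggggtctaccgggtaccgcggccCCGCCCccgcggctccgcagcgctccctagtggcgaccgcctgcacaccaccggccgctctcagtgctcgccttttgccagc
Dkk1: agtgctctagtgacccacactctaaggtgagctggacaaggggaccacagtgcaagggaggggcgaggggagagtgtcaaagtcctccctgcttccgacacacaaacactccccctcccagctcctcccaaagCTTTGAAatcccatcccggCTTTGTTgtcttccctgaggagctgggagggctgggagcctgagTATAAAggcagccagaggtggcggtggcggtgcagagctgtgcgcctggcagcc

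Each window was searched for a TCF and LEF core (the form CTTTGAA, the variant CTTTGAT, the form CTTTGTA and the variant CTTTGTT, all searched on either strand), the NF-κB consensus by its name on either strand, the TATA box (TATAAA, gene strand only) and the GC box (GGGCGG on either strand). The Dkk1 window held 2 TCF and LEF cores, CTTTGAA from base 117 before the start and CTTTGTT from base 98, and the other 5 windows held 0. Such a core was present in 14.8% of all 32851 windows of this length. The TATA box was found in the windows of Dkk1 and Dkk2 and in 7.59% of all windows. Whether any of these motifs goes with detection was not tested. A GC box was present in the windows of Sfrp5, Frzb, Dkk2 and Wif1 and in 32.7% of all windows, and 0 of the 6 member windows held the NF-κB consensus, which 7.25% of all windows held. The share of G and C was above the median of all windows, 52.4%, in each of the 6 member windows, whichever way the member went: 64.4% for Frzb, 63.6% for Sfrp2, 62.8% for Wif1, 60.8% for Dkk1, 59.6% for Sfrp5 and 55.6% for Dkk2. These are matches of letters in a short window and say nothing about binding.

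Of the secreted Frizzled-related proteins, which carry a domain like the ligand-binding part of Frizzled receptors, Sfrp2 had the highest log2 ratio. Its probe for NM_009144 read an intensity of 634 before and 1505 after loading. The log2 ratio was 1.25 ± 0.20 (within-array error), or 2.37-fold, where this error combines the scanner software's error of both spots and covers error within the arrays only. For bright probes this error was close to a fixed share of the intensity, and its median over detected genes was 0.204. Counts of such errors therefore largely restate the log2 ratio for bright probes. A measured spread existed only for the 380 probes with 8 or more spots. Their repeat spots gave log2 ratios with a median standard deviation of 0.106. Sfrp2 had 1 spot. Its loaded array was brighter by 6.11 of the software's errors. A higher ratio was found for 0.274% of detected genes, which placed Sfrp2 at rank 40 of 14222. The raw spot signal before background subtraction showed the same order, with a median of 717 before loading and 1566 at 24 h over local backgrounds of 36 and 38.

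Frzb, the member best known from cartilage, was measured by a probe for NM_011356. Its intensity was 4509 before and 9708 after loading, which gives a log2 ratio of 1.11 ± 0.20, a 2.15-fold difference. Frzb ranked 65 among detected genes. Its log2 ratio differed from that of Sfrp2 by 0.14 with an error of 0.29, so the 2 members could not be told apart. A 2-fold limit passed by more than 2 within-array errors was met by 0 of the 7 detected members. It was met by 0.176% of detected genes in the upward and 0.696% in the downward direction. These counts depend on the size of the software's error, and the call was not rerun with the measured spread of repeat spots.

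Sfrp5, a ligand-binding antagonist also known as a product of fat cells, went in the same direction by less. Its probe for NM_018780 read 9204 before and 12931 after loading. The log2 ratio was 0.49 ± 0.20, or 1.41-fold, and 5.49% of detected genes had a higher ratio. The ratio of Sfrp2 was above that of Sfrp5 by 0.76 with an error of 0.29.

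Sfrp4 and Sfrp1, the remaining Frizzled-related members, were dim and lay on the lower side. The probe of Sfrp4 for NM_016687 read 164 before and 114 after loading, a log2 ratio of -0.52 ± 0.21. The probe of Sfrp1 for NM_013834 read 153 and 124, a log2 ratio of -0.30 ± 0.21, which is -1.39 times its error. The difference of Sfrp1 is therefore within 2 errors, and that of Sfrp4 beyond it. The difference between the log2 ratios of Sfrp2 and Sfrp4 was 1.77 with an error of 0.29, so the 5 members of this family did not share a direction.

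**Figure D1:**
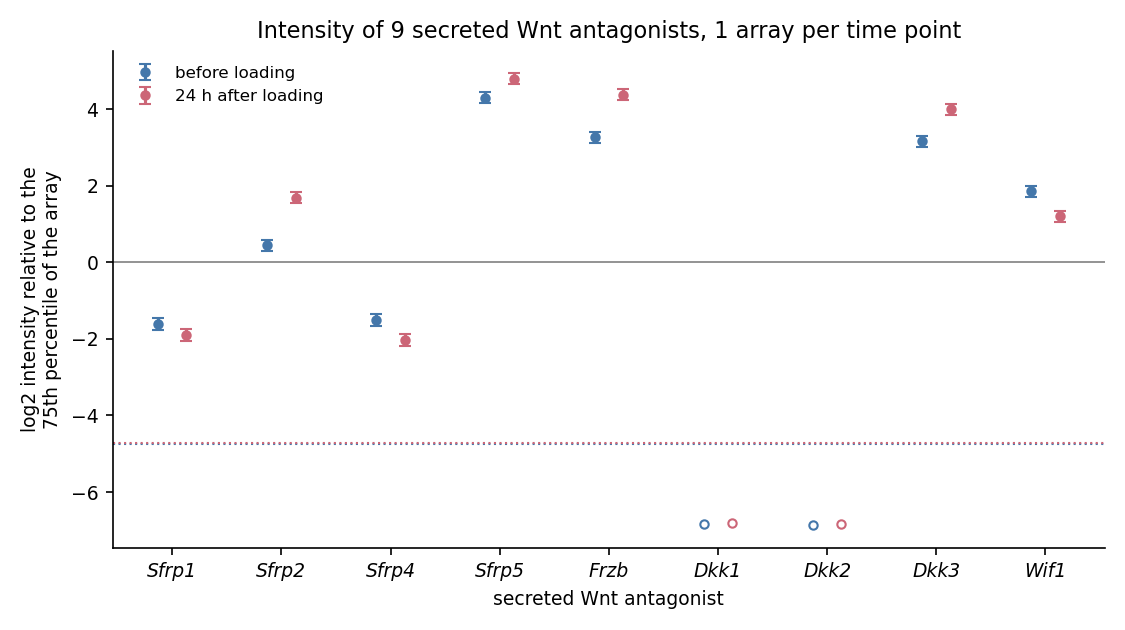
The vertical axis is the log2 intensity of each secreted Wnt antagonist relative to the 75th percentile of its array (grey line), before loading (blue) and 24 h after (red), with bars for the scanner software's within-array error. Open circles are probes not well above background, dotted lines are the lowest intensity well above background on each array, and levels are to be compared within a gene only. Sfrp2 stood at 0.44 and then 1.69, and Frzb at 3.27 and then 4.38.

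Of the Dickkopf proteins, only Dkk3 was detected. Dkk3 is a divergent member of this family, and a role in blocking the LRP co-receptors is less settled for it than for Dkk1. Its probe for NM_015814 read 4173 before and 7441 after loading. The log2 ratio was 0.84 ± 0.20, or 1.78-fold, and 1.24% of detected genes had a higher ratio. Dkk3 thus stayed inside 2-fold, 4.09 errors above 0, and lay 0.27 below Frzb with an error of 0.29.

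Dkk1, a classical LRP-binding antagonist that is itself induced by β-catenin in many cells, read 4.08 before and 4.18 after loading on its probe for NM_010051. Dkk2, which binds the same co-receptors, read 3.996 and 4.09 on its probe for NM_020265. The software flagged neither gene as well above background on either array, so no ratio is given. The dimmest probes it did flag read 17.3 and 17.8. The raw median signal of the Dkk1 spot was 38 and 37, against local backgrounds of 40 and 43. The raw median signal of the Dkk2 spot was 38 and 42.5, against local backgrounds of 37 and 41. A level below what these probes resolve cannot be told from absence.

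Wif1, which binds Wnt ligands through a domain of its own, had the lowest log2 ratio of the detected members. Its probe for NM_011915 read 1692 before and 1078 after loading. The log2 ratio was -0.65 ± 0.20, or 1.57-fold lower, and 4.71% of detected genes had a lower ratio. Wif1 stayed inside 2-fold with a ratio -3.18 times its error. The ratio of Sfrp2 was above that of Wif1 by 1.90 with an error of 0.29, and that of Frzb by 1.76.

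**Figure D2:**
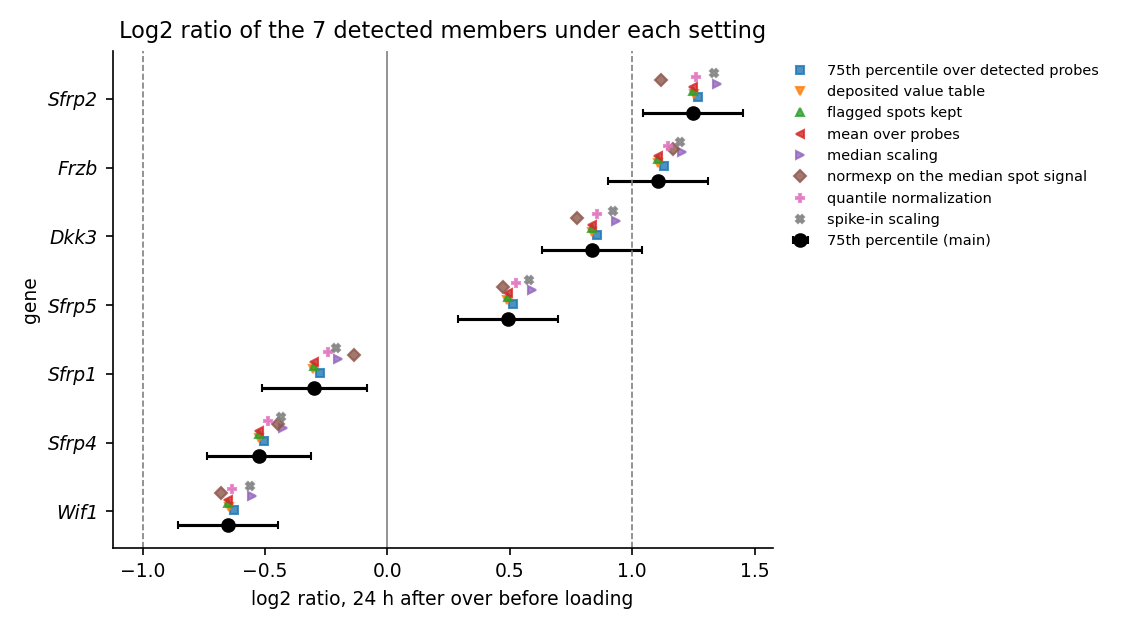
The horizontal axis is the log2 ratio, 24 h after over before loading, of the 7 detected members in order of the ratio. Black circles are the values scaled to the 75th percentile with bars of 1 within-array error, coloured symbols are 8 other settings, and dashed lines mark 2-fold. Sfrp2 and Frzb lie right of 2-fold in every setting drawn, and Wif1, Sfrp4 and Sfrp1 lie left of 0.

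In order of the log2 ratio the members ran Sfrp2, Frzb, Dkk3, Sfrp5, Sfrp1, Sfrp4 and Wif1. The only neighbours in this order that differed by more than 2 within-array errors were Sfrp5 and Sfrp1, with a difference of -0.79 ± 0.30 for Sfrp1 minus Sfrp5. Of the 21 pairs of detected members, 14 differed by more than 2 errors. Of the 7 members, 4 were higher by more than 2 within-array errors, against 7.64% of detected genes, and 2 were lower by more than 2, against 9.38%. These errors hold no variation between cultures, so the counts describe these arrays and not the condition.

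**Figure D3:**
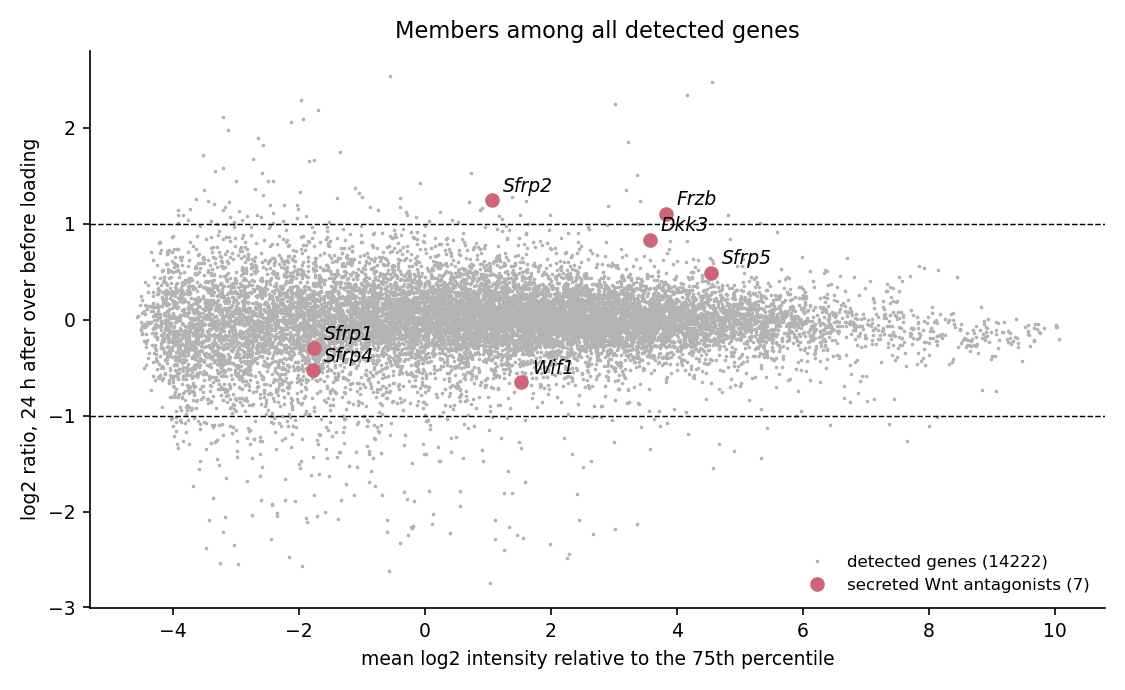
Each grey point is 1 of the 14222 genes detected on both arrays, with the mean log2 intensity relative to the 75th percentile on the horizontal axis and the log2 ratio, 24 h after over before loading, on the vertical axis. Red points are the 7 detected secreted Wnt antagonists, and dashed lines mark 2-fold, which Sfrp2 and Frzb passed.

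Spots close to each other on an array can change together, so the spots well above background within 100 µm of each member were examined. Around Sfrp2 there were 13 such spots with a median log2 ratio of -0.00, and 0 of them had a ratio as high as Sfrp2. Around Frzb there were 17 with a median of 0.03, of which 0 were as high as Frzb, and around Dkk3 20 with a median of -0.05, of which 0 were as high. Around Wif1, 0 of 14 spots were as low as Wif1. Of the 19 neighbours of Sfrp5, 2 were past 2-fold higher. Lower than the member itself were 3 of the 17 neighbours of Sfrp4 and 2 of the 14 of Sfrp1. These counts follow largely from the size of each ratio. Of all detected genes, 0.274% were above Sfrp2, 0.450% above Frzb and 1.24% above Dkk3, and 4.71% were below Wif1. Few spots as extreme were therefore to be expected anywhere, and the counts cannot show whether a local array effect is absent. The medians say only where the surrounding spots lay as a set.

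**Figure D4:**
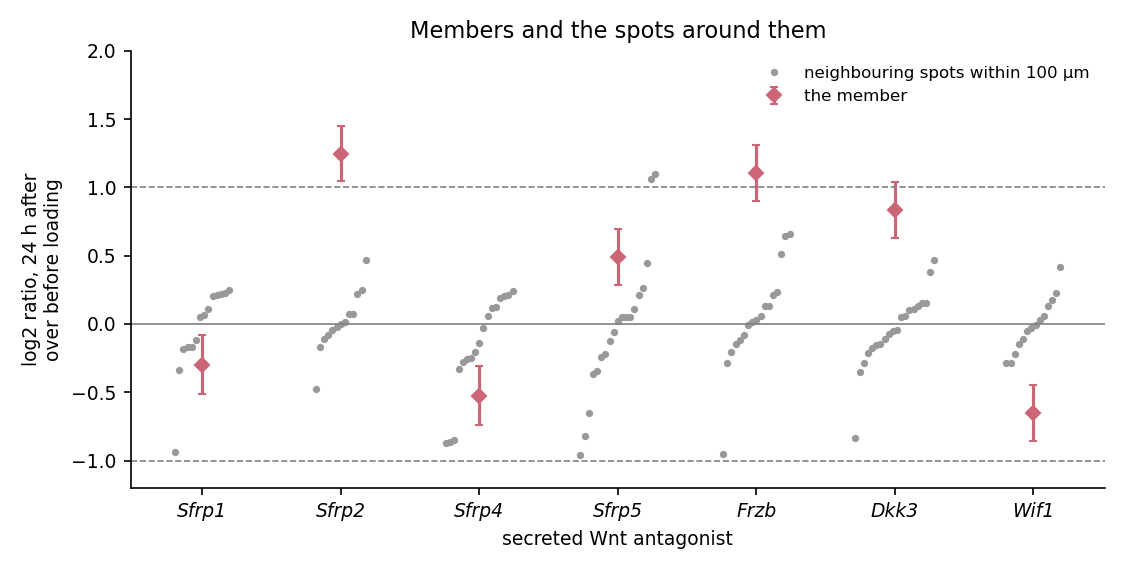
The vertical axis is the log2 ratio, 24 h after over before loading, of each detected member (red diamonds, bars of 1 within-array error) and of the spots well above background within 100 µm of it (grey points, ordered by value). Sfrp2, Frzb and Dkk3 lie above all of their neighbours and Wif1 below all of its own, whereas Sfrp5, Sfrp1 and Sfrp4 lie within the range of theirs.

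The rest of the Wnt pathway was read from 8 lists with 79 genes in all, of which 56 were detected on both arrays. By the brightest probe of each gene, 1 of these 56 was past 2-fold higher and 0 past 2-fold lower. Of all detected genes, 0.668% were past 2-fold higher and 1.83% past 2-fold lower. By the same probe of each pathway gene, 3 of the 56 were higher and 7 lower by more than 2 within-array errors. The shares of all detected genes were 7.64% higher and 9.38% lower. The median log2 ratio of the 56 was -0.02. The 3 higher ones were Rspo2, Igfbp4 and Fzd8, and the 7 lower ones Fzd3, Lef1, Myc, Rspo1, Sostdc1, Wnt10b and Wnt11, several of which are named only because these counts were seen. Of the lower ones, 3 came within 2 errors under other settings. Rspo1 did so with normexp background correction (-0.37 with an error of 0.28, from -0.87), and Myc when arrays were scaled to their median (-0.24 with an error of 0.14) or to the spike-in probes (-0.25). Sostdc1, at -0.60, did so with normexp (-0.20 with an error of 0.28), under median (-0.50), spike-in (-0.51) and quantile (-0.51) normalization, and with the mean over its probes (-0.51). Normexp was run with an offset of 50 added to each intensity, which draws the ratios of dim probes towards 0. The errors were not recomputed for it, so coming within 2 errors under normexp is partly built in for dim genes. The gene past 2-fold was Rspo2, a secreted agonist that keeps Wnt receptors at the cell surface. Its probe read 38.6 before and 143 after loading, a log2 ratio of 1.89 ± 0.27. Rspo2 is dim, and its log2 ratio was 0.95 when the background was corrected by the normexp method, with its offset, in place of the scanner software. Over the 4 detected secreted agonists the median log2 ratio was -0.04, and the brightest of them, Rspo3, had 0.10.

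Among the other secreted inhibitors, 4 of 8 were detected and 0 were past 2-fold. Igfbp4, an insulin-like growth factor binding protein with Wnt-inhibiting activity, and Notum, an enzyme that removes the lipid of Wnt ligands, were picked from these after their values were seen. Igfbp4 read 1328 before and 2537 after loading, a log2 ratio of 0.93 that stayed inside 2-fold here but passed it when arrays were scaled to their median (1.03) or to the spike-in probes (1.02). Notum read 11944 and 12138, a log2 ratio of 0.02. Sost and Dkk4, further LRP-binding inhibitors, were flagged well above background on neither array.

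Of the 19 Wnt ligands, 9 were detected on both arrays, with log2 ratios from -0.75 (Wnt10b) to 0.18 (Wnt5a) and a median of -0.19. A dimmer probe of Wnt4 gave -0.60 ± 0.22, against -0.23 for its brightest. Of the 10 Frizzled receptors, 9 were detected, from -0.64 (Fzd3) to 0.57 (Fzd8) on the brightest probe of each. Of these 9, 8 were above 0, against 47.6% of all detected genes. By more than 2 within-array errors, only 1 was higher (Fzd8) and 1 lower (Fzd3). Dimmer probes gave 0.68 ± 0.20 for Fzd2 (brightest 0.24), 0.41 for Fzd5 (brightest 0.30) and -0.08 for Fzd7 (brightest 0.13). The co-receptors and other receptors ranged from -0.12 (Lgr4) to 0.21 (Kremen1, a Dickkopf receptor) over 6 detected genes, with 0.01 for Lrp5 and -0.03 for Lrp6, the co-receptors that Dkk1 binds, which were picked for that. The 11 intracellular transducers were all detected, from -0.23 (Dvl2, a Dishevelled protein that relays the signal from Frizzled) to 0.31 (Gsk3b, a kinase of the complex that degrades β-catenin). On the brightest probe of each, 0 of them differed by more than 2 within-array errors, against 17.0% of all detected genes. Dimmer Gsk3b probes gave 0.54 ± 0.20, which is beyond 2 errors, and 0.15 ± 0.21. The 10 detected feedback and target genes ranged from -0.66 (Lef1) to 0.49 (Tcf7), with a median of -0.11 and 0 past 2-fold. Lef1, a TCF family factor whose gene is also a target, read 1006 before and 636 after loading. Axin2, a widely used readout of β-catenin activity and also picked after its values were seen, was dim, with 38.1 and 32.1, and its log2 ratio of -0.25 was within its error of 0.32.

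**Figure D5:**
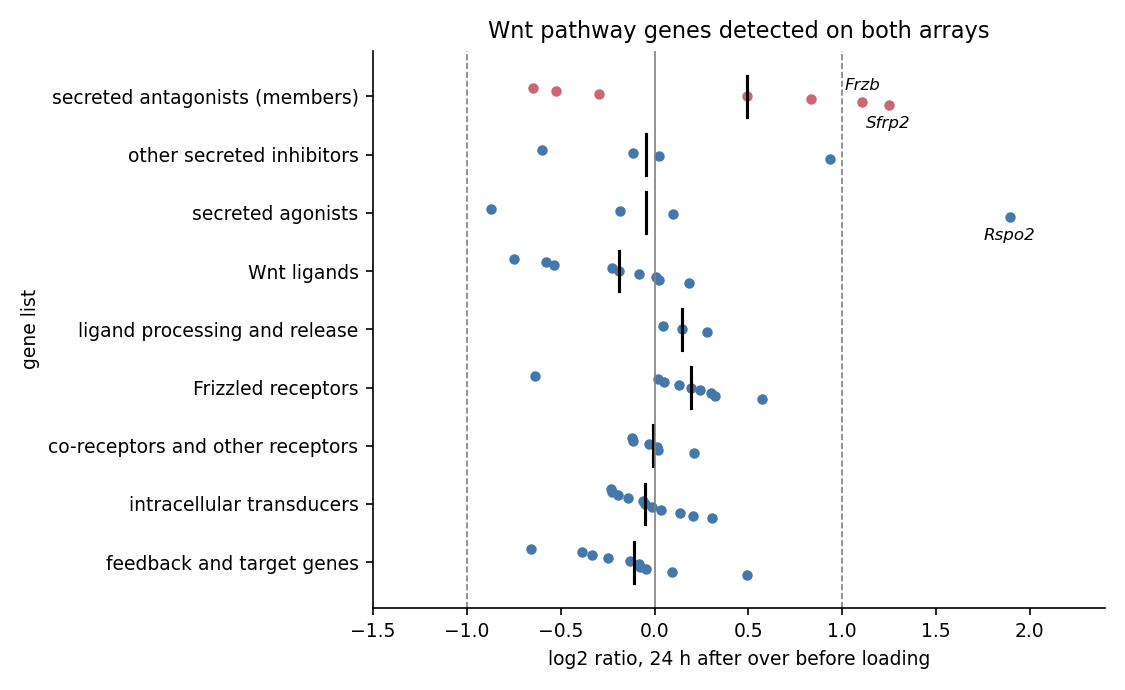
The horizontal axis is the log2 ratio, 24 h after over before loading, of each gene detected on both arrays, by list on the vertical axis. Red points are the secreted antagonists, blue points the other lists, black bars the median of each list and dashed lines 2-fold. Sfrp2, Frzb and Rspo2 are the genes past 2-fold.

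Facts of the arrays as a whole bear on these values. The number of arrays limits the precision, and the 75th percentile lay at an intensity of 466 on each array. Of 12 chondrocyte markers all 12 were detected, with log2 ratios from -0.82 to 0.56 and -0.07 for Col2a1, the brightest of them. Of 7 fibroblast markers all 7 were detected, from -0.04 to 0.43, with 0.01 for the brightest, Col1a2. Adipocyte markers were higher too: 3 of 4 were past 2-fold higher (Adipoq 2.29, Cidea 1.53 and Plin1 1.01), Fabp4 had 0.95, and the summed intensity of the 4 was 1319 before and 3147 after loading. Their part in the result was not tested. Of the endothelial markers Cdh5 and Tek, of the muscle markers Myod1 and Ckm, and of the osteoblast markers Dmp1 were flagged well above background on neither array. Others of the same lists were detected on both arrays. Among them were Pecam1 (endothelial, 111 before and 130 after loading), Myog (muscle, 38.5 and 35.1) and Sp7 (osteoblast, 78.8 and 50.5). The brightest of the other lists were Prg4 (superficial zone, -0.47), Scx (tenocyte, -0.44), Acta1 (muscle, -0.31), Csf1r (macrophage, -0.15), Kdr (endothelial, -0.05) and Ibsp (osteoblast, -2.06). The other tenocyte markers did not go with Scx. Mkx had 0.21 ± 0.21, and Tnmd read 40.3 before and 57.8 after loading, well above background at 24 h only. Second probes of Kdr (5.05 and 5.63) and of Prg4 (7.91 and 4.51) were well above background on neither array. The other Csf1r probes gave 0.27 and 0.20, the opposite sign. A second Ibsp probe read 76.2 before and 14.7 after loading, well above background before loading only. Ibsp was past 2-fold lower, and Ptprc of the macrophage list, which was dim, was past 2-fold higher at 1.14. Of the 4 osteoblast markers 3 had a probe, since none was named Bglap. Bglap2 and Bglap3, which were not on the list, had log2 ratios of 0.44 and 0.27, opposite in sign to Ibsp and Sp7.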

How the data were processed

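RNA of mouse primary chondrocytes was hybridised to 2 one-colour Agilent arrays, 1 before and 1 at 24 h after loading. The authors deposited the processed intensity of each spot from Agilent Feature Extraction 10.10.1.1, background-subtracted and not normalized between arrays, and a value table of the same intensities (largest difference 0.497%).

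Spots flagged as outliers on either array (141 before loading and 138 at 24 h of 59305 spots other than controls) were left out and spots of one probe were averaged, leaving 55678 probes. Log2 intensity minus the array's 75th percentile was used, and a gene is its brightest probe. Probes were named through RefSeq accessions without versions, for names only (27235 probes matched), and the promoter windows come from RefSeq on GRCm38.p6. Detected means well above background, by the software's flag, on both arrays. Neighbours were found from spot positions at 3 µm per pixel.

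The members and gene lists were chosen with earlier results of these data known. Named genes are all members, detected pathway genes past 2-fold, the highest and lowest of each pathway list with at least 5 detected genes, and of each marker list the brightest gene and those past 2-fold. Genes named outside this rule were chosen after their values were seen. Normexp used limma 3.58.1 (R 4.3.3, offset 50) and the rest Python 3.11.15 with numpy 2.4.6 and pandas 2.3.3. The ratio and call steps were tested on simulated data with changes well past the 2-fold limit and noise from the scanner software's error only. That test does not cover calls near the limit or variation between cultures. A total of 11 alternatives were run.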

Additional observations from a re-analysis of the deposited data

How the results depend on the processing

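Sfrp2 (1.12 to 1.35) and Frzb (1.11 to 1.20) stayed past 2-fold in all 8 settings run for the single ratios, and all 7 detected members kept their sign and moved by less than 1 within-array error. Most of these settings could hardly move a member. With 1 probe per member the mean over probes changed nothing, and the deposited table and the kept outlier spots gave nearly the same values. Scaling to the median, the spike-in probes or the detected probes added 1 constant, at most 0.098, to every ratio. Only quantile normalization and normexp could shift members against each other by more than a trace. When 2-fold had to be passed by more than 2 within-array errors, 0 members were called, a count that depends on the software's error. Without a filter on dim probes the median over the members was 0.0362, because Dkk1 and Dkk2 then count. Of the pathway genes, 2 were past 2-fold higher when arrays were scaled to their median or to spike-in probes, 2 when detection on 1 array sufficed, 0 under normexp correction, and 4 higher and 3 lower without a filter on dim probes. Over all genes, 95 were higher and 260 lower, against 130 and 205 under median scaling, 124 and 208 under spike-in scaling, 25 and 99 under the error allowance, 192 and 507 where detection on 1 array sufficed, 492 and 983 without a filter and 38 and 117 with normexp correction. The offset of 50 in normexp draws the ratios of dim probes towards 0, and its share in the lower counts was not tested. Quantile normalization gave 108 and 224. No setting moved the median of all detected genes by more than 0.098, its shift under median scaling. No paired analysis was possible because each time point has only 1 array, and for the same reason no replicate could be left out. Signal over background limits what can be said of Dkk1 and Dkk2, and of dim genes such as Rspo2.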
